A study of Mus musculus with 2 samples.

Results

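The receptors described here are those for orexin, histamine, noradrenaline, serotonin, dopamine and acetylcholine, the transmitters released by the arousal systems of the brain. They were taken from a list of 38 gene symbols, all of which were found among the 31054 genes counted in the series. The list holds 2 orexin, 3 histamine, 7 adrenergic, 13 serotonin, 5 dopamine, 5 muscarinic and 3 nicotinic receptor genes. By the signalling each receptor is best known for, 15 couple to Gi/o and are called inhibitory here. The other 23 are called excitatory: 12 couple to Gq, 7 couple to Gs and 4 are subunits of cation channels.

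Orexin, histamine, noradrenaline, serotonin, dopamine and acetylcholine neurons are active in waking. They project to the preoptic area, the forward end of the hypothalamus, where sleep-promoting neurons lie. What a transmitter does to a cell depends on the receptor: Gi/o proteins lower cyclic AMP and open GIRK potassium channels, Gq proteins raise calcium, Gs proteins raise cyclic AMP, and ion channels depolarise directly. Noradrenaline, for instance, inhibits through alpha-2 receptors and excites through alpha-1 and beta receptors, so the set of receptors that a preoptic neuron makes bears on whether arousal signals silence or excite it.

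Cells of this area from C57BL/6J mice, 9 to 10 weeks old, were sequenced in 2 libraries by Act-seq, in which transcription is blocked while tissue is dissociated, and 10x Genomics chemistry. The SD+RS library came from mice that were sleep-deprived for 6 h and then had 2 h of recovery sleep, and the SD library from mice taken right after 6 h of sleep deprivation. All mice were thus sleep-deprived, and each library pooled males and females, whose number no source used here gives. The study looked for neurons active in rebound sleep from cluster markers and immediate early genes. With 1 library per group no test was possible, so 95% intervals cover counting error only and the spread between mice is unknown.

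The SD+RS library held 123500649 UMIs (molecules counted once) in 8106 barcodes, and the SD library 132191585 in 10262. After filtering, 7412 SD+RS cells and 9295 SD cells were analysed, and 23 barcodes occurred in both libraries. Cells were clustered without the 38 receptor genes and named from marker genes. Neurons made up 57.8% of SD+RS cells and 41.4% of SD cells, with median depths of 21214 and 21928.5 UMIs. A shallow cluster with neuron markers, 0.917% of SD+RS and 6.14% of SD cells, was left out of the neurons. The mix of sexes also differed: of neurons called by Xist or by Y-linked genes, 77.4% of the SD+RS neurons and 38.8% of the SD neurons had Xist UMIs only. Differences between the libraries are therefore also given within cells that had Xist UMIs only (Xist-only, read as female) and within cells that had Y-linked UMIs only (Y-only, read as male). The Xist-only share also differed between classes of 1 pool. In SD it was 38.8% in neurons, 58.8% in astrocytes and 67.1% in mural cells, and in SD+RS 77.4%, 80.5% and 88.9%. The call thus need not give the sex of each cell, and how often it errs was not tested. The part of sex in the other differences was not tested.

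Values are UMIs in each 1000000 UMIs of the class or cluster, written CPM. Reads come from the 3′ ends of transcripts and are not scaled to length, so levels are compared between cells for 1 gene and not between genes. A gene was called measured in a class with at least 100 UMIs over both libraries, and in a neuron cluster with at least 50. In neurons 31 of the 38 receptors were measured. The other 7 had few UMIs in SD+RS and SD neurons: Htr5b had 37 and 25, Drd4 9 and 15, Htr2b 4 and 7, Chrm4 4 and 7, Drd3 2 and 4, Adra1d 1 and 0, and Adra2b 0 and 1. The Chrm4 and Chrm5 gene models of GENCODE vM21 each hold 3 bases of UTR. Whether a short annotated end lowered their 3′ counts was not tested.

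Of the 31 members measured over the 7 classes, 20 were higher in neurons than in each of 6 other classes in both libraries, against 22% of all genes measured. Neurons were deeper than glia, with a median of 21214 UMIs in SD+RS against 3140.5 in SD+RS astrocytes. After each cell was thinned to 2000 UMIs the 20 became 12. That count also leaves out receptors with under 100 UMIs after thinning, so it does not rest on the same 31. The rest had their highest level in glia or vessels in at least 1 library. Hrh1 and Adra2a were highest in astrocytes, Hrh2 and Adrb1 in microglia, Chrm1, Chrna4 and Htr6 in oligodendrocyte precursors, and Drd1 in mural cells, the pericytes and smooth muscle cells of vessels. The class differed between the libraries for Adra1a, Htr5a and Chrna7.

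**Figure D1:**
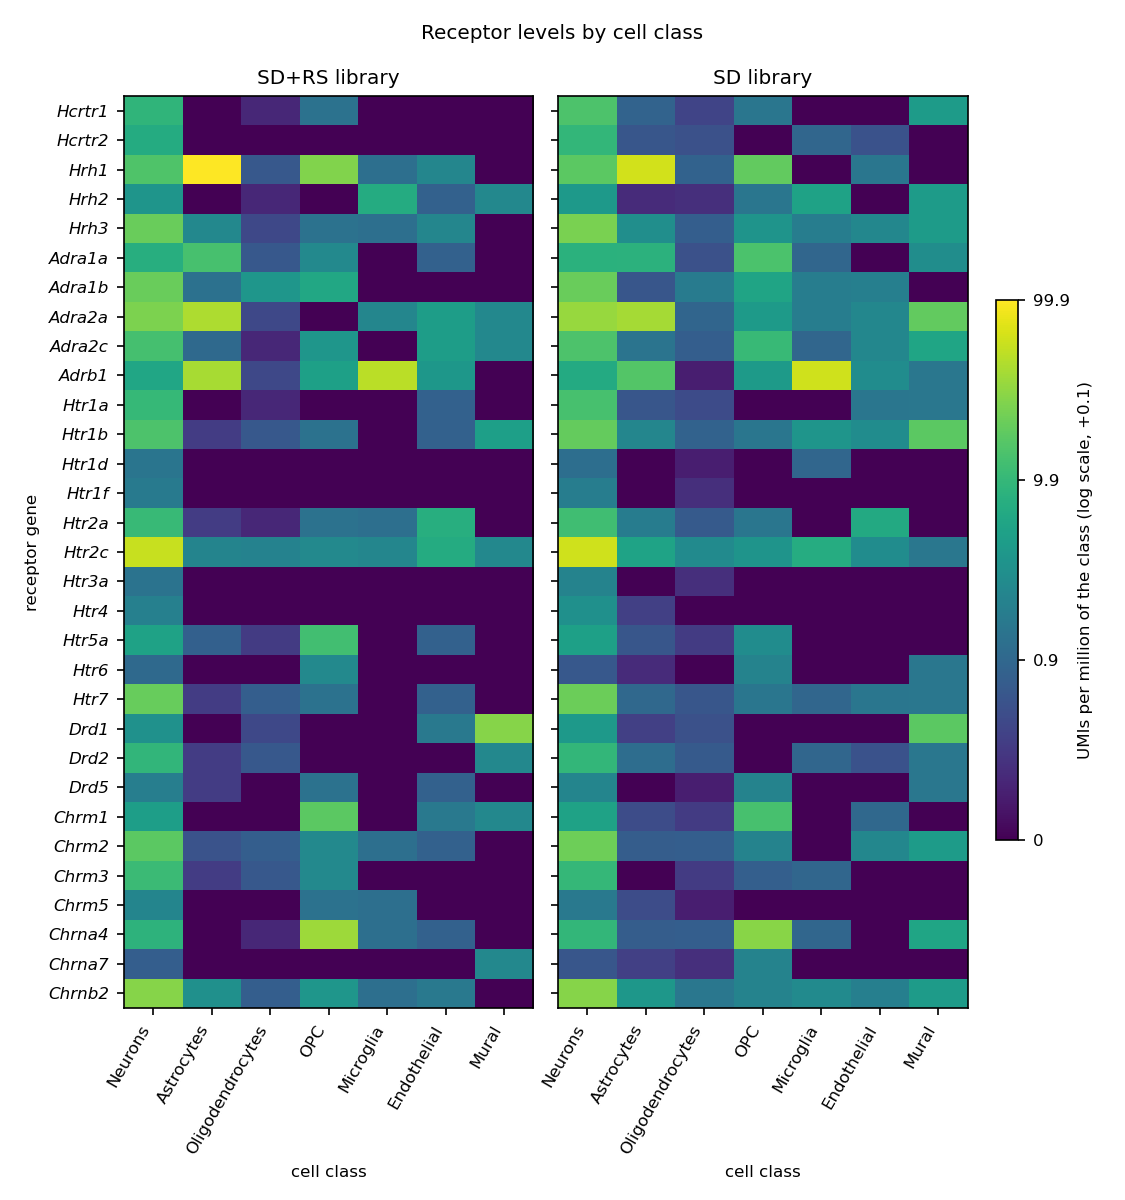
Level of each receptor in the 7 marker-defined classes of the SD+RS library and of the SD library, in CPM on a log colour scale. Hrh1 stands out in astrocytes (98.1 CPM in SD+RS, 62.1 in SD) and Adrb1 in microglia and astrocytes, whereas most serotonin, dopamine and muscarinic receptors are highest in neurons.

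Orexin is a peptide that keeps animals awake, and its receptors Hcrtr1 and Hcrtr2 both excite cells through Gq. Hcrtr1 (chr4:130130217-130139359, minus strand, mm10, coordinates here and below from GENCODE vM21) had 9.12 CPM in SD+RS neurons (892 UMIs) and 14.4 CPM in SD neurons (1292 UMIs), a log2 ratio of −0.66 (−0.78 to −0.53). Hcrtr2 (chr9:76225880-76323856, minus strand) had 6.98 CPM in SD+RS neurons and 9.66 CPM in SD neurons, a log2 ratio of −0.47 (−0.62 to −0.32). Both receptors were lower in the SD+RS library, and both intervals lay below 0. In GABAergic neurons Hcrtr1 had 9.63 CPM in SD+RS and 16.5 in SD (−0.78), and Hcrtr2 had 5.95 in SD+RS and 9.09 in SD (−0.61). In glutamatergic neurons the log2 ratios were −0.16 for Hcrtr1 (6.86 CPM in SD+RS, 7.69 in SD) and −0.19 for Hcrtr2 (9.85 in SD+RS, 11.2 in SD), and both intervals held 0.

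Xist-only neurons kept this order of the types, and Y-only neurons did not for Hcrtr1. In Xist-only cells Hcrtr1 gave −0.92 in GABAergic and −0.06 in glutamatergic neurons, and in Y-only cells 0.14 in GABAergic and −0.52 (−1.07 to 0.01) in glutamatergic neurons. Hcrtr2 gave −0.81 in GABAergic and −0.35 in glutamatergic neurons in Xist-only cells, and −0.13 and 0.03 in Y-only cells. Over all neurons with Xist UMIs only, the log2 ratio was −0.69 (−0.88 to −0.49) for Hcrtr1 and −0.65 for Hcrtr2. In neurons with Y-linked UMIs only it was −0.07 for both, with an interval of −0.27 to 0.12 for Hcrtr1. Summed over both receptors, neurons had 16.1 CPM in SD+RS and 24.1 CPM in SD (−0.58), against a log2 ratio of −0.07 within neurons that had Y-linked UMIs only.

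Hcrtr1 had its highest levels in GABAergic populations but was not confined to them. Neurons held 892 Hcrtr1 UMIs in SD+RS and 1292 in SD, most of them outside the highest cluster. Across the 34 neuron clusters with at least 50 cells in each library and a clear transmitter type, here called by their 3 leading genes, its level was highest in the Brs3 Calcr Gal neurons. These had 32.6 CPM in SD+RS (132 UMIs) and 93.7 CPM in SD (236 UMIs), against medians over the clusters of 5.85 CPM in SD+RS and 6.42 in SD. Here and below, clusters are called highest or lowest by the level over both libraries together. The Cck Sytl4 Trpc6 neurons came next with 27.9 CPM in SD+RS and 77.6 in SD, and the C1ql1 Sncg Opn5 neurons were lowest with 0.687 and 0 CPM. Hcrtr1 was measured in 12 clusters and was over 1.5 times lower in SD+RS in 7 of them, where 3.58% of all pairs of a gene and a cluster were that low. The 7 included the Brs3 Calcr Gal neurons (−1.52, −1.84 to −1.21), the Cck Sytl4 Trpc6 neurons (−1.48) and the Crhbp Ramp3 Id2 neurons (5.12 CPM in SD+RS, 29.8 in SD, −2.54). Within these clusters the sex calls again differed. In the Brs3 Calcr Gal neurons the log2 ratio was −2.34 in Xist-only cells and 0.17 in Y-only cells. In the Crhbp Ramp3 Id2 neurons it was −0.07 in Y-only cells. In the Cck Sytl4 Trpc6 neurons it was −1.99 in Xist-only and −1.42 in Y-only cells, where 10 Xist-only SD cells and 13 Y-only SD+RS cells limited both values. These clusters were picked out after their values had been seen.

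Hcrtr2 had another distribution. It was highest in the glutamatergic Gng8 Barhl2 C1ql1 neurons, with 28.2 CPM in SD+RS and 37.7 in SD, followed by the GABAergic Gbx1 Bcl11b Sox6 neurons with 25.1 and 28.7 CPM. It had no UMI in the C1ql1 Sncg Opn5 neurons of either library, which allows up to 2.53 CPM in SD+RS and 2.02 in SD. It was measured in 13 clusters and was over 1.5 times lower in SD+RS in 6 and over 1.5 times higher in 1. Among all pairs of a gene and a cluster, 3.58% were that low and 2.75% that high. Hcrtr2 was lower by the most in the Ntng1 Penk Gal neurons (3.63 CPM in SD+RS, 13.9 in SD, −1.94). There 52.9% of the sex-called SD+RS cells were Xist-only, against 16.7% of the SD cells. The higher cluster was the Gal Amigo2 Prkcd neurons (8.18 in SD+RS, 3.94 in SD, 1.05).

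Because the pools mixed the sexes, Hcrtr1 could also be compared between female-called and male-called neurons inside each library, a comparison added after the data had been seen. In SD+RS it had 7.25 CPM in neurons with Xist UMIs only and 14.8 CPM in neurons with Y-linked UMIs only (−1.03, −1.24 to −0.82). In SD it had 11.7 and 15.6 CPM in the same order (−0.42, −0.60 to −0.24). Among 22 clusters with at least 15 cells of each kind in each library, Hcrtr1 was measured in 7. It was lower in cells with Xist UMIs only in both libraries in 6 of these, and over 1.5 times lower in both in 3, where 1.21% of all pairs of a gene and 1 of these clusters were that low.

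The largest of these differences stood in the Crhbp Ramp3 Id2 neurons, with 1.77 CPM in Xist-only and 31.1 CPM in Y-only cells of SD+RS, and 7.58 and 32.7 CPM in those of SD. The 31.1 CPM in Y-only cells of SD+RS came from 19 cells. The Tbr1 Nrn1 Samd3 neurons had 6.02 and 16.01 CPM in SD+RS, and 6.505 and 13.8 CPM in SD. The Sox14 Slc17a6 Nptx2 neurons went the other way, with 11.01 CPM in Xist-only and 6.03 CPM in Y-only cells of SD+RS, and 11.6 and 6.51 CPM in those of SD. Of the 31 measured receptors, 0 were over 1.5 times higher and 1 over 1.5 times lower in Xist-only than in Y-only neurons of both libraries, against 0.332% and 0.526% of all genes. That receptor was Htr3a, with 0.771 and 2.13 CPM in SD+RS and 0.777 and 2.71 CPM in SD. The number of mice of each sex is not known, so sex and individual mice cannot be told apart.

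**Figure D2:**
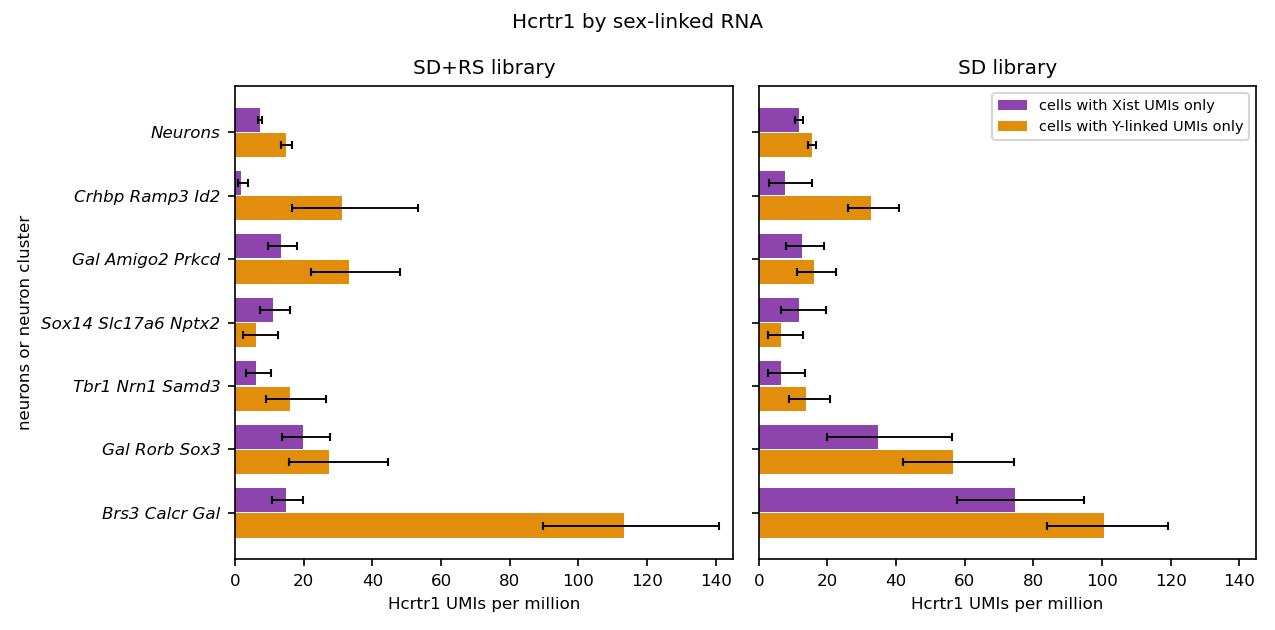
Hcrtr1 level in neurons and in 6 of the 7 clusters where it was measured, in CPM with 95% Poisson intervals, for Xist-only and Y-only cells, in the SD+RS library (left) and the SD library (right). In the Brs3 Calcr Gal neurons the levels were 14.8 and 113 CPM in SD+RS, and 74.7 and 101 CPM in SD; the Sox14 Slc17a6 Nptx2 row runs the opposite way in both panels.

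Histamine excites neurons through Hrh1 (Gq) and Hrh2 (Gs), whereas Hrh3 (Gi/o) curbs transmitter release. Hrh3 (chr2:180099465-180104488, minus strand) had 20.4 CPM in SD+RS neurons and 24.6 CPM in SD neurons (−0.27), and Hrh2 had 3.58 and 4.07 CPM (−0.18). Hrh1 (chr6:114397936-114483296, plus strand) had 14.7 CPM in SD+RS neurons and 17.4 CPM in SD neurons (−0.25, −0.35 to −0.14). All 3 were slightly lower in SD+RS neurons. By sex call Hrh1 gave −0.10 (−0.26 to 0.06) in Xist-only and −0.11 (−0.29 to 0.06) in Y-only neurons. Hrh2 gave −0.25 and −0.27, and Hrh3 −0.13 and −0.38, in the same order. The intervals of Hrh1 and Hrh2 held 0 in both kinds of cell. In astrocytes Hrh1 went the other way, with 98.1 CPM (88.8 to 108, 406 UMIs) in SD+RS and 62.1 CPM (56.6 to 68.0, 466 UMIs) in SD, a log2 ratio of 0.66 (0.46 to 0.86). The astrocyte difference was of like size within each sex call, at 0.62 in Xist-only and 0.72 in Y-only cells.

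Among neuron clusters, Hrh1 was highest in the glutamatergic Prok2 Adcyap1 Adamtsl2 neurons, with 42.2 CPM in SD+RS and 60.3 in SD, and lowest in the Gal Amigo2 Prkcd neurons, with 1.24 and 1.62 CPM. Hrh2 was highest in the Pou3f1 Gm45768 Ermn neurons, with 19.4 CPM in each library. Hrh3 was highest in the Cck Sytl4 Trpc6 neurons (50.2 CPM in SD+RS, 65.7 in SD) and lowest in the Pou3f1 Gm45768 Ermn neurons (0 and 1.94). The Pou3f1 Gm45768 Ermn neurons were thus at opposite ends for the excitatory Hrh2 and the inhibitory Hrh3. Both values fell short of the minimum of 50 UMIs, with 24 in SD+RS and 20 in SD for Hrh2, and 0 and 2 for Hrh3.

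Noradrenaline excites through alpha-1 receptors (Adra1a, Adra1b; Gq) and the beta-1 receptor (Adrb1; Gs), and inhibits through alpha-2 receptors (Adra2a, Adra2c; Gi/o). Adra2a (chr19:54044151-54048982, plus strand) had 25.6 CPM in SD+RS neurons and 34.2 CPM in SD neurons (−0.42, −0.50 to −0.34), and it was also lower within each sex call, at −0.58 in Xist-only and −0.49 in Y-only neurons. Adra1b (chr11:43774606-43901210, minus strand) had 20.5 CPM in SD+RS neurons and 20.4 CPM in SD neurons (0.01). That ratio joined opposite values by sex call, −0.20 (−0.33 to −0.07) in Xist-only and 0.25 (0.09 to 0.41) in Y-only neurons. Adra1a had 7.51 and 8.06 CPM in SD+RS and SD neurons, Adra2c had 12.8 and 14.5, and Adrb1 (chr19:56722199-56733113, plus strand) had 5.83 and 6.77.

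Adra2a had its highest level in a single neuron type, although most of its UMIs lay elsewhere. The GABAergic Tac2 Gal Sntb1 neurons, 77 cells in SD+RS and 93 in SD, had 245 CPM (597 UMIs) in SD+RS and 291 CPM (814 UMIs) in SD. They held 24.9% of the Adra2a UMIs of the 34 clusters in SD+RS and 28.4% in SD. The Gal Amigo2 Prkcd neurons followed with 67.2 and 91.2 CPM, the medians over clusters were 10.8 and 11.7 CPM, and the Sox14 Fam159b Npffr1 neurons were lowest with 1.88 and 1.89 CPM. Both leading clusters have Gal, the gene of the peptide galanin, among their leading genes. So do the Ntng1 Penk Gal, Gal Rorb Sox3, Brs3 Calcr Gal and C1ql3 Sox3 Gal neurons, which ranked lower for Adra2a.

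The authors' deposited table for both libraries together lists a cluster, i2, with Tac2 in 95.8% of its cells and 22.1% of the others, and Sntb1 in 82.5% and 2.3%. For that cluster the authors' deposited table gives Adra2a in 96.4% of cells against 25.8% of the others. It also gives Htr7 in 91.6% against 28.1% and Htr2c in 93.4% against 38.9%, again from the authors' deposited table. These shares come from other cell calls than the rebuilt Tac2 Gal Sntb1 cluster, but the same libraries.

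Adra1b was highest in the Adgrf5 Six3 Lhx8 neurons (112 CPM in SD+RS, 93.2 in SD) and the Penk Nmu Serpinb1b neurons (109 and 79.2), and lowest in the Cck Sytl4 Trpc6 neurons (1.59 and 1.97). Adra1a was highest in the Nfix Cplx3 St18 neurons, with 31.9 CPM in SD+RS and 31.5 in SD. Adra2c was highest in the Cck Sytl4 Trpc6 neurons, with 27.1 and 28.9 CPM. Adrb1 was highest in the Crhbp Ramp3 Id2 neurons, with 21.1 and 23.2 CPM, and had no UMI in the Adgrf5 Six3 Lhx8 neurons of either library, which allows up to 2.07 CPM in SD+RS and 1.69 in SD. The neurons richest in alpha-1B receptor RNA therefore had no detected beta-1 receptor RNA.

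Outside neurons the adrenergic receptors marked astrocytes and microglia. Adrb1 had 40.3 CPM (34.5 to 46.9, 167 UMIs) in SD+RS astrocytes and 15.5 CPM (12.8 to 18.5, 116 UMIs) in SD astrocytes, a log2 ratio of 1.38 (1.03 to 1.74). It was higher in SD+RS within each sex call, at 1.82 in Xist-only and 0.94 in Y-only astrocytes. In microglia it had 49.4 CPM in SD+RS (43 UMIs) and 60.2 CPM in SD (68 UMIs), so the astrocyte difference was not seen there (−0.29). Adra1a had 13.3 CPM in SD+RS astrocytes (55 UMIs) and 8.26 CPM in SD astrocytes (62 UMIs), a log2 ratio of 0.69 (0.14 to 1.23), but by sex call it was 1.36 in Xist-only and −1.31 in Y-only astrocytes, the last from 3 and 28 UMIs. Adra2a, with 42.8 CPM in SD+RS astrocytes and 39.6 in SD astrocytes, was level (0.11).

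Of the 4 receptors measured in astrocytes, 3 (Hrh1, Adra1a and Adrb1) were over 1.5 times higher in SD+RS, against 2.82% of all genes measured there, and 0 were over 1.5 times lower, against 5.29%. The 3 became 1 after thinning, in Y-only cells, with a minimum of 300 UMIs or at 2-fold. Receptors that fell below the minimum of UMIs were not counted, as Adrb1 and Adra1a at 300 UMIs. Over 9 alternatives the log2 ratio ran from 0.58 to 0.72 for Hrh1, and from 0.94 to 1.82 for Adrb1. For Adra1a it ran from −1.31 to 1.36. Astrocytes were shallower than neurons but alike between the libraries in their astrocyte marker list, which summed to 16976 CPM in SD+RS and 15931 CPM in SD. The neuron marker list in astrocytes summed to 539 CPM in SD+RS and 684 in SD, against 15272 and 15599 CPM in neurons, and Htr2c, the receptor with the most UMIs in neurons, had 2.17 CPM in SD+RS astrocytes and 5.46 in SD astrocytes. Within the largest astrocyte cluster alone, the log2 ratios were 0.59 for Hrh1 and 1.31 for Adrb1.

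The promoters of Adrb1 and Hrh1 are shown because these receptors had the best-counted differences in astrocytes. Each is the 250 bases before a transcript start, from RefSeq on GRCm38.p6, 5′ to 3′ on the gene's plus strand. Capitals mark a match to TGACG, the core of a cyclic AMP response element, in Adrb1, and to TGANTCA, the AP-1 element bound by Fos and Jun proteins, in Hrh1.
Adrb1, chr19:56721867-56722116: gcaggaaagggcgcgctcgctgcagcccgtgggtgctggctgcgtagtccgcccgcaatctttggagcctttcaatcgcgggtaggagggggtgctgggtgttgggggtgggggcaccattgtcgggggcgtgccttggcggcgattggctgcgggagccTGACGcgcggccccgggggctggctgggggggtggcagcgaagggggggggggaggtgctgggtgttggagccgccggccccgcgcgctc
Hrh1, chr6:114458272-114458521: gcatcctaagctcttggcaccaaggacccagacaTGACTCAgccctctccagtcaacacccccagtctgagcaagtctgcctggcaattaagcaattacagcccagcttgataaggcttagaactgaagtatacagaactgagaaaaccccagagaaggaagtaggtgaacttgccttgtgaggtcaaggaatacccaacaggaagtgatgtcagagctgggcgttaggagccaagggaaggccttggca

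Both motifs were searched on both strands of the same 250 bases, and TGANTCA reads alike on both strands. The Adrb1 window held TGACG once, 90 bases before the start. Hrh1 has 4 listed starts, and TGANTCA was found once, 216 bases before the start, in the window shown and not in the other 3. TGACG was present in 17.8% of 32851 windows and in 4 of the 32 receptors that have one (Adra2a, Adrb1, Chrnb2 and Htr7). TGANTCA was present in 6.75% of windows and in 4 of these 32 receptors (Adra1b, Hrh1, Htr2b and Htr2c). Windows were counted singly, and a receptor by a match in any of its windows, so these numbers cannot be set against each other. A match is a description of the letters, and binding was not measured here.

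Serotonin has the largest family in the list. Its inhibitory receptors are Htr1a, Htr1b, Htr1d and Htr1f and the Htr5 pair, Htr2a and Htr2c excite through Gq, Htr4, Htr6 and Htr7 act through Gs, and Htr3a is a subunit of a cation channel. Htr1a had 10.2 CPM in SD+RS neurons and 13.3 CPM in SD neurons (−0.38), and Htr1b had 14.5 and 19.3 CPM (−0.42, −0.52 to −0.31). Htr2c (chrX:146962513-147197277, plus strand) had 56.5 and 60.2 CPM (−0.09), and Htr7 (chr19:35958734-36057507, minus strand) 19.8 and 21.3 CPM (−0.10). By sex call the order of these 4 differed: in Xist-only neurons Htr1a gave −0.48, Htr1b −0.36, Htr2c −0.14 and Htr7 0.01, and in Y-only neurons they gave −0.32, −0.17, −0.33 and −0.33. Htr2a, the receptor that serotonergic psychedelics act on, had 10.5 and 11.9 CPM (−0.18). Htr5a had 5.19 and 4.97 CPM, Htr1f 1.63 and 1.77, and Htr1d 1.36 and 1.13.

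The serotonin family also held the largest library ratios in neurons, all from low counts. Htr3a (chr9:48899213-48911099, minus strand) had 1.28 CPM in SD+RS neurons (125 UMIs) and 2.12 in SD neurons (190 UMIs), a log2 ratio of −0.73 (−1.07 to −0.39). Htr4 had 1.95 CPM in SD+RS (191 UMIs) and 3.11 in SD (279 UMIs), a log2 ratio of −0.67 (−0.94 to −0.40). Htr6 had 0.971 CPM in SD+RS (95 UMIs) and 0.568 in SD (51 UMIs), a log2 ratio of 0.77 (0.27 to 1.29). By sex call, Htr4 stayed lower in Xist-only and Y-only neurons (−0.60 and −0.83), Htr6 stayed higher (0.63 and 0.76), and Htr3a gave −0.01 and −0.35.

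Serotonin receptors differed widely among neuron types. Htr3a was concentrated in the Nfix Cplx3 St18 neurons, with 29.6 CPM in SD+RS and 43.2 in SD, which held 64.3% and 47.6% of its UMIs over the 34 clusters, and the Six3 Pmaip1 Rtn4rl1 neurons (11.6 and 21.8 CPM). In 20 clusters it had no UMI. Htr1a was highest in the Gbx1 Bcl11b Sox6 neurons (55.6 CPM in SD+RS, 72.4 in SD) and next in the Tac2 Gal Sntb1 neurons (37.7 and 40.4). Htr1b was highest in glutamatergic neurons, the Eomes Masp1 Tmem163 (45.5 and 54.8 CPM) and Sox14 Slc17a6 Nptx2 clusters (44.7 and 53.8), and lowest in the Gng8 Barhl2 C1ql1 neurons (0.741 and 2.46). Htr1b was over 1.5 times lower in SD+RS in 8 of the 20 clusters where it was measured and over 1.5 times higher in 0, and Htr1a was lower in 6 and higher in 1 of 13, against 3.58% lower and 2.75% higher among all pairs of a gene and a cluster.

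The Tac2 Gal Sntb1 neurons led for Htr7 and Htr2c, as they did for Adra2a. Htr7 had 82.4 CPM there in SD+RS and 98.6 in SD, ahead of the Nrgn Sp9 Aldh3b2 neurons (39.8 and 35.6), and it was lowest in the Brs3 Calcr Gal neurons (2.97 and 1.99). Htr2c had 212 CPM in SD+RS and 225 in SD, and it was lowest in the Pou3f1 Gm45768 Ermn neurons (4.05 and 3.89). Htr4, at 3.28 and 11.4 CPM, was also highest in these neurons over both libraries together. It reached the minimum of 50 UMIs in no cluster.

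Htr2a differed between the libraries in the same cluster. In the Tac2 Gal Sntb1 neurons it had 47.1 CPM in SD+RS (115 UMIs) and 23.6 CPM in SD (66 UMIs), a log2 ratio of 0.999 (0.55 to 1.46), whereas over all neurons it was −0.18. By sex call the ratio was 0.84 in Xist-only and 0.54 in Y-only cells, the last with only 6 cells in SD+RS. Of the sex-called cells of this cluster, 92.1% in SD+RS were Xist-only, against 51.1% in SD. In the Gal Amigo2 Prkcd neurons Htr2a was also higher in SD+RS (25.5 and 14.1 CPM, 0.85). Over both libraries its highest levels were in the glutamatergic Gng8 Barhl2 C1ql1 (39.3 and 36.9 CPM) and Tbr1 Nrn1 Samd3 neurons (36.0 and 35.0), and its lowest in the Gal Rorb Sox3 neurons (0.406 and 1.98).

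The authors' deposited tables for the single libraries bear on similar neurons, but they come from the same libraries and are no second source. In the SD+RS library the authors' deposited table lists a cluster with Tac2 in 98.4% and Sntb1 in 89.1% of its cells, and it gives Htr2a in 68.8% of these cells against 13.7% of the others. The authors' deposited table for the SD library lists a cluster with Tac2 in 96.8% and Sntb1 in 77.4% of its cells, and Htr2a has no entry for it, whereas Adra2a is listed in 96.8% of these cells against 25.4% of the others. A missing entry is not a measured low level, and Htr2a was found in the SD cells of the rebuilt cluster. The Htr2a comparison was chosen after its values had been seen.

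Dopamine receptors divide into Drd1 and Drd5, which act through Gs, and Drd2, Drd3 and Drd4, which act through Gi/o. Drd2 (chr9:49340627-49408177, plus strand) had 9.40 CPM in SD+RS neurons and 9.60 in SD neurons (−0.03), Drd1 had 3.19 and 4.03 (−0.34), and Drd5 had 1.81 and 2.21 (−0.29). In glutamatergic neurons Drd5 was over 1.5 times lower in SD+RS, with 2.05 CPM against 3.64 in SD (−0.83, −1.33 to −0.34), but by sex call it was −0.33 (−1.03 to 0.40) in Xist-only cells and −2.05 in Y-only cells, the last from 8 and 60 UMIs. Drd2 was highest in the Lhx8 Cartpt Spon1 neurons (54.7 CPM in SD+RS, 45.7 in SD) and the Sp8 Th Ddc neurons (40.03 and 49.1), which hold RNA for enzymes of dopamine synthesis. Drd1 was highest in the Tcf7l2 Cxcl12 Fezf2 neurons (12.8 and 24.6) and the Meis2 Rprml Bcl11b neurons (19.1 and 19.3), and Drd5 in the Gbx1 Bcl11b Sox6 neurons (12.5 and 11.5). The Tac2 Gal Sntb1 neurons, rich in adrenergic and serotonin receptors, had no Drd1 UMI in either library, which allows up to 1.51 CPM in SD+RS and 1.32 in SD.

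Acetylcholine acts through muscarinic receptors, of which Chrm1, Chrm3 and Chrm5 excite through Gq and Chrm2 and Chrm4 inhibit through Gi/o, and through nicotinic cation channels, of which Chrna4 and Chrnb2 form the commonest pair in brain. Chrm2 (chr6:36388084-36528414, plus strand) had 17.6 CPM in SD+RS neurons and 21.8 in SD neurons (−0.31, −0.40 to −0.21), and Chrm3 had 11.1 and 10.0 CPM (0.15, 0.03 to 0.28). Chrm5 had 2.24 CPM in SD+RS (219 UMIs) and 1.55 in SD (139 UMIs), a log2 ratio of 0.53 (0.22 to 0.85), and past 1.5-fold in GABAergic neurons (2.55 and 1.54 CPM, 0.72). By sex call Chrm5 gave 0.70 in Xist-only and 0.18 in Y-only neurons. Chrm3 gave 0.21 in Xist-only and −0.07 (−0.31 to 0.16) in Y-only neurons, and Chrm2 −0.32 and −0.28. Chrm2 was thus lower in SD+RS neurons in both kinds of cell, while the interval of Chrm3 held 0 in Y-only neurons. Chrnb2, with 28.3 and 28.1 CPM, was level (0.01), Chrna4 had 8.70 and 9.66, Chrm1 had 4.71 and 5.24 (−0.15, with 0.11 in Xist-only and −0.75 in Y-only neurons), and Chrna7 had 0.695 and 0.535.

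In glutamatergic neurons Chrm2 had 16.8 CPM in SD+RS and 27.2 in SD (−0.69, −0.87 to −0.52). By sex call this was −0.48 in Xist-only cells, short of 1.5-fold, and −1.36 in Y-only cells, whereas GABAergic neurons gave −0.29 in Xist-only and 0.25 (0.04 to 0.46) in Y-only cells. Its leading cluster, the Tcf7l2 Cxcl12 Fezf2 neurons, had 73.8 CPM in SD+RS (92 UMIs) and 151 CPM in SD (277 UMIs), a log2 ratio of −1.04, in 56 and 75 cells. It was followed by the Gbx1 Bcl11b Sox6 neurons with 63.8 and 82.2 CPM. Chrm3 was highest in the Eomes Masp1 Tmem163 neurons (50.6 and 50.8), Chrm1 in the Meis2 Rprml Bcl11b neurons (29.2 and 29.9), Chrm5 in the Otp Sim1 Lhx2 neurons (7.71 and 5.42) and Chrna4 in the Tbr1 Nrn1 Samd3 neurons (30.9 and 26.3). The Chrm5 value rested on 13 UMIs in SD+RS and 9 in SD, short of the minimum of 50. Chrnb2 varied least: its highest cluster had 42.1 CPM in SD+RS and 46.6 in SD, and its lowest 23.4 and 19.2.

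Some acetylcholine and other receptors were detected in glia and vessels from small counts. In oligodendrocyte precursors, Chrna4 had 35.9 CPM in SD+RS (29 UMIs) and 29.5 in SD (42 UMIs), and Chrm1 had 17.4 (14 UMIs) and 13.3 (19 UMIs). These cells also carried neuronal RNA, with a neuron marker sum of 2217 CPM in SD+RS and 2275 CPM in SD, whose part in these values was not tested. Drd1 had 28.8 CPM in SD+RS mural cells and 17.3 CPM in SD mural cells, from 12 UMIs in each. None of these passed the minimum of 100 UMIs, and no difference between the libraries is read from them.

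GABAergic neurons were over 1.5 times higher than glutamatergic neurons in both libraries for 8 of the 31 receptors, against 3.09% of all genes, and over 1.5 times lower for 3, against 3.49%. The 8 were Adra1b, Adra2a, Htr1a, Htr1f, Htr3a, Htr7, Drd2 and Chrm1, and the 3 were Htr2a, Chrm3 and Chrna4. A further 11 passed 1.5-fold in 1 library only. Of the 8, 4 couple inhibitory and 4 excitatory, and the 3 couple excitatory, as do 21 of the 31 measured. At 2-fold the 8 became 5 and the 3 became 0. Drd2 had 12.1 CPM in GABAergic and 2.55 in glutamatergic neurons of SD+RS (2.25), and 12.2 and 3.16 in those of SD (1.95). Htr1a had 12.7 and 4.31 CPM in SD+RS (1.56), and 16.9 and 4.73 in SD (1.84). Adra2a had 30.9 and 13.2 CPM in SD+RS, and 41.3 and 17.3 in SD. Among the 3 lower ones, Htr2a had 8.71 CPM in GABAergic and 15.1 in glutamatergic neurons of SD+RS (−0.80), and 9.70 and 16.8 in those of SD (−0.79). Chrm3 had 9.41 and 15.6 CPM in SD+RS (−0.73), and 8.17 and 15.02 in SD (−0.88). The ratio was close to 0 for Chrnb2 (0.10 in SD+RS, 0.08 in SD).

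**Figure D3:**
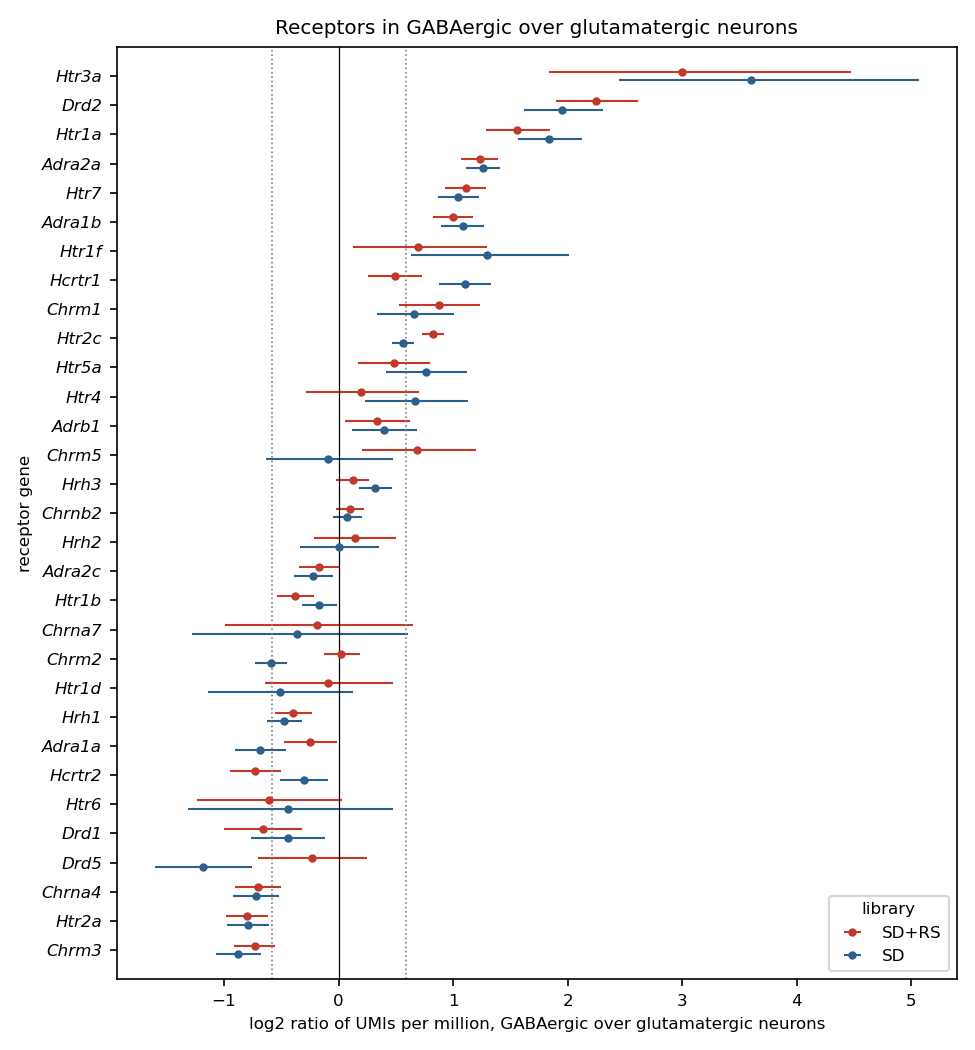
Log2 ratio of each measured receptor in GABAergic over glutamatergic neurons, with 95% counting intervals, in the SD+RS and SD libraries; dotted lines mark 1.5-fold. Htr3a (3.001 in SD+RS, 3.60 in SD) and Drd2 lie furthest to the GABAergic side, and Htr2a, Chrm3 and Chrna4 on the glutamatergic side in both libraries.

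Over all neurons the receptors stood slightly below the other genes in the SD+RS library. Their median log2 ratio was −0.18 over the 31 measured, against −0.016 over all 14006 genes measured in neurons. Past 1.5-fold, 1 receptor was higher in SD+RS (Htr6), against 1.04% of all genes, and 3 were lower (Hcrtr1, Htr3a and Htr4), against 1.81%. In GABAergic neurons 1 of 29 was higher (Chrm5), against 1.12%, and 4 were lower (Hcrtr1, Hcrtr2, Htr3a and Htr4), against 1.66%. In glutamatergic neurons 0 of 25 were higher, against 0.571%, and 2 were lower (Drd5 and Chrm2), against 1.09%. By transmitter, the summed log2 ratio in neurons was −0.58 for orexin, −0.25 for histamine, −0.22 for noradrenaline, −0.17 for serotonin, −0.15 for dopamine, −0.11 for muscarinic and −0.02 for nicotinic receptors.

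**Figure D4:**
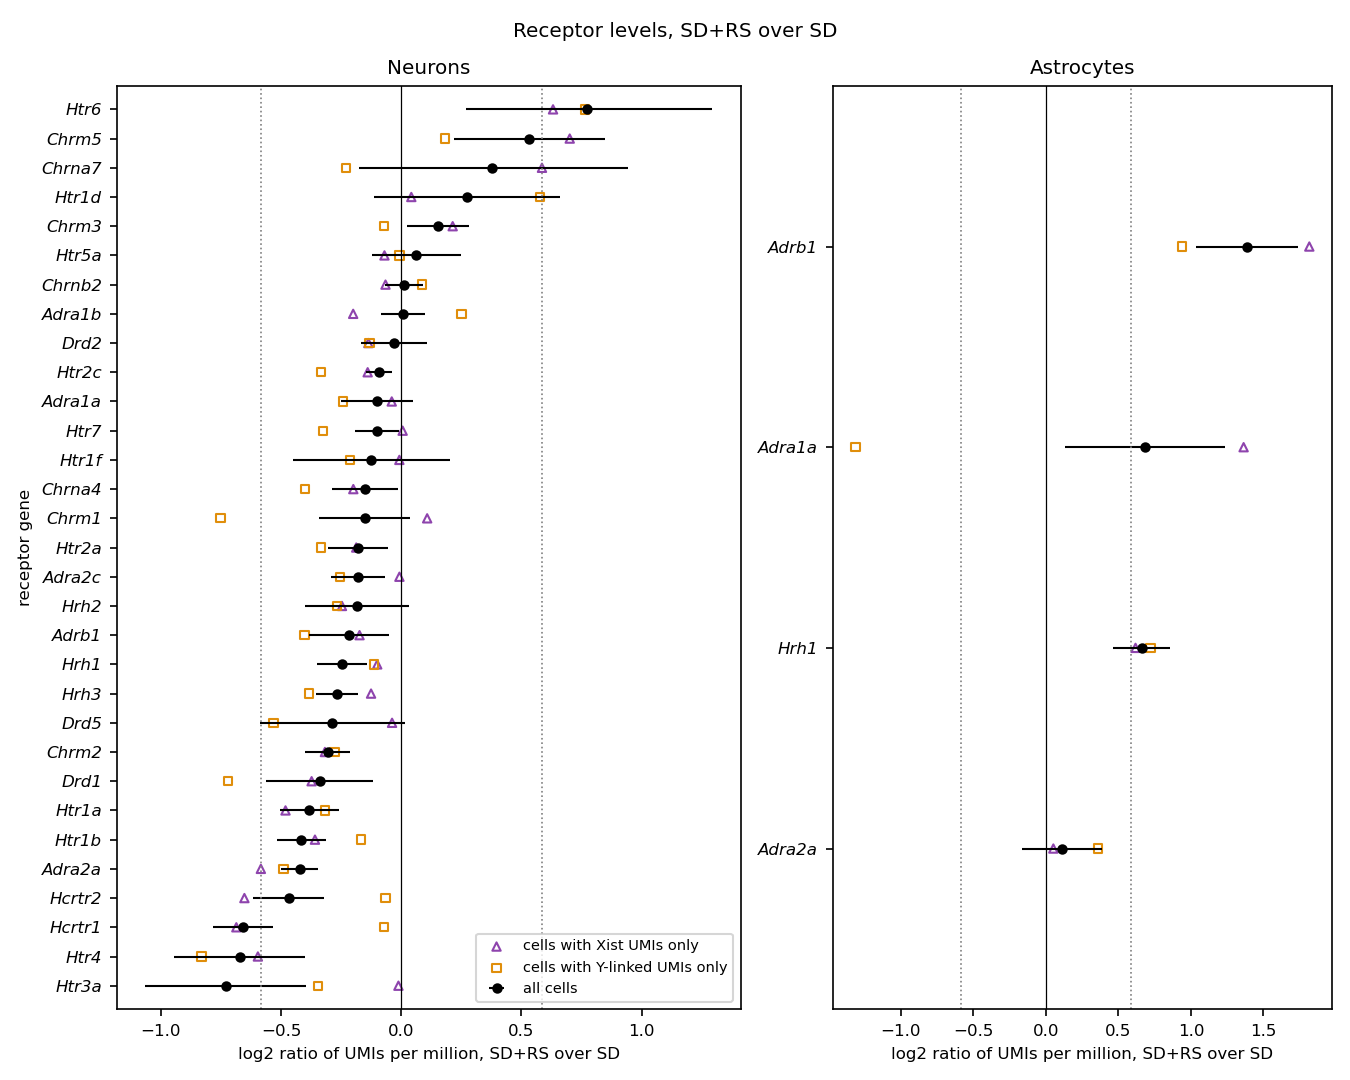
Log2 ratio of SD+RS over SD for each measured receptor in neurons and in astrocytes, with 95% counting intervals; open triangles are Xist-only cells, open squares Y-only cells, and dotted lines mark 1.5-fold. In neurons Hcrtr1 (−0.66), Htr4 (−0.67) and Htr3a (−0.73) lie lowest and Htr6 (0.77) highest, and in astrocytes Adrb1 (1.38) lies highest.

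The same tilt was seen cluster by cluster, though the clusters are parts of the same neurons and give no second result. Over the 34 clusters there were 344 pairs of a receptor and a cluster in which it was measured, from 24 receptors, with a median log2 ratio of −0.19. Past 1.5-fold, 13 of these pairs were higher in SD+RS, 3.78%, against 2.75% of all pairs of a gene and a cluster, and 55 were lower, 15.99%, against 3.58%. The receptor pairs rested on fewer UMIs, a median of 101 against 196 for all pairs, and fewer UMIs give wider counting error. Of the 55 lower pairs, 44 had an interval wholly below 0, and 38 were lower both in Xist-only and in Y-only cells. These pairs were picked for being low and the sex calls are parts of them, so such agreement is not support. The like shares over all pairs of a gene and a cluster were not computed. Of the 55 lower pairs, Htr1b gave 8, Hcrtr1 7, Hcrtr2 and Htr1a 6 each and Adra2a 5.

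Inhibitory coupling was set against excitatory coupling as the share of all receptor UMIs that belong to Gi/o receptors, which weighs each receptor by its UMIs. In neurons it was 35.1% in SD+RS (34.6 to 35.7, 11656 of 33174 UMIs) and 37.7% in SD (37.2 to 38.2, 13080 of 34728 UMIs), 2.53 percentage points lower in SD+RS (difference −2.53). Gi/o receptors summed to 119 CPM in SD+RS neurons and 146 in SD neurons (−0.29), Gq receptors to 144 and 159 (−0.14), Gs receptors to 37.1 and 42.0 (−0.18) and channels to 39.0 and 40.4 (−0.05). The Gi/o, Gq and Gs sums were lower in SD+RS, the Gi/o sum by the most, and the interval of the channels held 0 (−0.12 to 0.01). The difference shrank to −1.02 points after thinning to equal depth and to −0.87 points when each receptor was set relative to its own mean. The share was 35.9% in GABAergic neurons and 32.7% in glutamatergic neurons of SD+RS, and 38.5% and 34.8% in those of SD.

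The share varied far more between neuron types than between the libraries. It was highest in the Serpinb1b Foxp2 Zeb2 neurons, with 57.1% in SD+RS and 64.2% in SD, the 1 cluster above 50% in both. The Eomes Masp1 Tmem163 neurons (49.0% and 47.2%), the Lhx8 Cartpt Spon1 neurons (46.3% and 48.6%) and the Sp8 Th Ddc neurons (43.9% and 49.0%) followed. The Gng8 Barhl2 C1ql1 neurons (19.7% and 23.1%) and the Pou3f1 Gm45768 Ermn neurons (21.4% and 18.7%) were lowest. The Tac2 Gal Sntb1 neurons had 41.4% in SD+RS and 44.2% in SD, with Adra2a on the inhibitory side and Htr2c and Htr7 on the excitatory side. The share was lower in SD+RS in 23 clusters and higher in 11, and the intervals of the libraries did not overlap in 5 of the 23 and 0 of the 11, with the widest gap in the Penk Nmu Serpinb1b neurons (28.8% in SD+RS, 39.5% in SD).

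**Figure D5:**
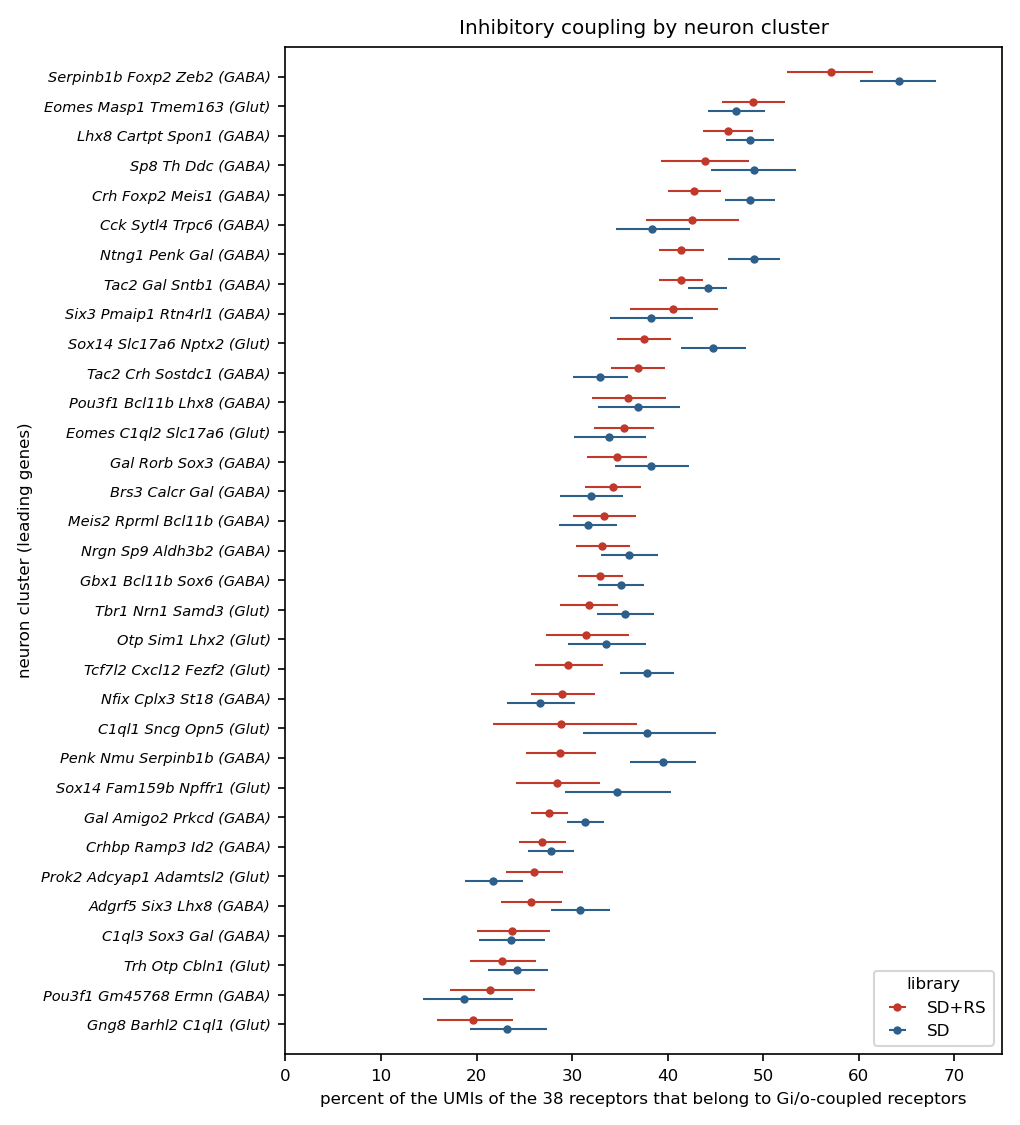
Share of receptor UMIs that belong to Gi/o-coupled receptors in the neuron clusters described, 1 of them not drawn, in percent with 95% Clopper-Pearson intervals, for the SD+RS and SD libraries. The clusters range between 19.7% and 57.1% in SD+RS, and the libraries lie close together in most rows.

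In astrocytes the inhibitory share was 23.0% in SD+RS (20.2 to 26.0) and 32.5% in SD (29.8 to 35.3). The Gi/o sum was level there, at 47.8 CPM in SD+RS and 49.2 in SD, while the Gq sum was 116 CPM in SD+RS and 80.3 in SD (0.53) and the Gs sum 40.8 and 17.2 (1.248). These sums are carried by Adra2a, Hrh1 and Adrb1.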

How the data were processed

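The deposited matrices hold raw UMI counts per gene and cell. They were written by software version 3.0.2, per the file headers, and Cell Ranger, Seurat 4.0.4 and the mm10 genome are named in the submitters' processing notes. No source used here names the annotation behind the counts. The authors also deposited marker tables with each gene's share of cells as a fraction, per the file headers, printed here as percent. Groups were taken from the treatment labels, 1 library each.

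Barcodes with 500 or more genes and less than 20% mitochondrial UMIs were kept, 7709 in SD+RS and 9875 in SD. Doublets were called per library from simulated pairs and removed (297 cells, 3.85%, and 580 cells, 5.87%). Both libraries were clustered together without correction and without the 38 receptors (scanpy 1.11.5, leidenalg 0.10.2), and neurons were clustered again. Classes were named from marker lists, with scoring thresholds set after the data had been seen, so names are rebuilt and can differ from the study's. A neuron cluster was GABAergic with Slc32a1 in at least 50% of its cells and Slc17a6 in under 20%, and glutamatergic the other way round. Of 51 neuron clusters, 34 were described.

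UMIs were summed per library and class or cluster and scaled to 1000000. Levels have exact Poisson, shares exact Clopper-Pearson and ratios exact conditional binomial intervals at 95% (scipy 1.17.1). With 1 library per group no p-value was computed, and a ratio past 1.5-fold is given beside the share of all measured genes past it. Where a library had no UMI, 3 counts served as the floor. The members, coupling classes, lists and alternatives were chosen with earlier results of these data known. All 38 members are accounted for. Named are the highest cluster of most measured members and the lowest of some. Also named are members past 1.5-fold in a class, and those with the 5 highest and 5 lowest ratios in neurons. The scripts were tested on simulated counts. Coordinates are from GENCODE vM21 and promoter windows from RefSeq, which has one for 32 of the 38 members. Results for 1 neuron cluster and 1 gene of the partner lists are not reported here.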

Additional observations from a re-analysis of the deposited data

Results flagged for a closer look

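The following ratios of SD+RS over SD had opposite signs in 2 kinds of cells, and none of these differences was tested, since each group is 1 library. Adra1b in neurons had a log2 ratio of −0.20 in neurons with Xist UMIs only (Xist-only) and 0.25 in those with Y-linked UMIs only (Y-only). In GABAergic neurons alone, Adra1b gave −0.24 and 0.23 in the same order. Chrm2 in GABAergic neurons gave −0.29 in Xist-only and 0.25 in Y-only cells beside a ratio of −0.08 over all GABAergic neurons. Htr1b in glutamatergic neurons gave −0.70 in Xist-only and 0.33 in Y-only cells.

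Between cell classes, Hrh1 had a log2 ratio of 0.66 in astrocytes and −0.25 in neurons, and Adrb1 had 1.38 in astrocytes and −0.22 in neurons. For these receptors of histamine and noradrenaline the astrocyte value held its sign within each sex call. In neurons Hrh1 gave −0.10 in Xist-only and −0.11 in Y-only cells, and both intervals held 0.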

How the results depend on the processing

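No paired analysis was possible because each group is 1 library. The alternatives were thinning to 2000 UMIs per cell (11 SD+RS and 41 SD neurons left out), cells of 1 sex call, a mean over cells, a 2-fold limit and a minimum of 300 UMIs, plus 3 added after seeing the data: the shallow cluster counted as neurons, neurons without the Brs3 Calcr Gal cluster, and the largest astrocyte cluster alone. Of the main results 113 recomputed values stayed close and 23 moved. Of the values for single receptors and for transmitter sums other than orexin, 395 stayed close, 70 moved and 2 reversed. Only a ratio past 1.5-fold in the main analysis could be called reversed. Smaller ratios also changed sign: Adra1b and Chrnb2 in neurons kept their sign in 7 of 11 alternatives, and Htr5a in 7 of 10. The causes were not tested.

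After thinning, 12 rather than 20 receptors were highest in neurons, and 9 rather than 24 had the same highest cluster in both libraries, against 12 in Xist-only cells. Thinning and taking 1 sex call leave fewer UMIs. Receptors that fell below 100 UMIs were not counted, so these numbers mix lost counts with lost differences. At 2-fold, the receptors higher in GABAergic neurons numbered 5 and the lower ones 0. Receptors higher in SD+RS neurons fell to 0 after thinning, in Y-only cells, from 300 UMIs and at 2-fold, and those lower fell to 0 at 2-fold. Receptors higher in SD+RS astrocytes fell to 1 under the same 4 alternatives. In neurons the receptor was Htr6, which had too few UMIs to be counted under all of these but the 2-fold limit. Its log2 ratio in Y-only neurons was 0.76. In astrocytes, Adrb1 and Adra1a had too few UMIs to be counted from 300 UMIs. The orexin sum was −0.78 after thinning and −0.070 in Y-only cells.

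The inhibitory share in neurons, SD+RS minus SD, was −1.55 points as a mean over cells, −1.02 after thinning, −3.30 without Htr5b and the orexin receptors and −0.87 with each receptor relative to its own mean. Its gap between GABAergic and glutamatergic neurons, 3.22 points in SD+RS and 3.75 in SD, was 0.34 in SD+RS after thinning, and 7.18 in SD+RS and 7.37 in SD relative to each receptor's mean. Of the ratios past 1.5-fold, Adra1a in astrocytes (−1.31) and Hcrtr1 in the Brs3 Calcr Gal neurons (0.17) reversed, both in Y-only cells. Depth limits the 7 receptors not measured in neurons, and all glial values but those of the 4 receptors measured in astrocytes and Adrb1 in microglia.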

Other observations

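Genes that work with these receptors were described from lists of their own. In neurons, 14 of 21 genes for synthesis, transport and breakdown of the transmitters were measured, with 1 past 1.5-fold higher in SD+RS (Slc18a3, the vesicular acetylcholine transporter), against 1.04% of all genes, 0 lower and a median log2 ratio of 0.16. Of the G protein alpha subunits 9 of 10 were measured, with 0 past 1.5-fold and a median of −0.01. Of the receptor kinases and arrestins 7 of 7 were measured, with 0 past 1.5-fold and a median of −0.08. The 4 GIRK channel genes, which carry the potassium current opened by Gi/o receptors, had 0 past 1.5-fold and a median of −0.04.

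Among GABAergic neurons alone, the receptor kinase Grk5 and the GIRK subunit Kcnj5 were over 1.5 times lower in SD+RS, 1 of 7 and 1 of 4 of their lists, against 1.66% of all genes. In astrocytes 1 of 8 measured G protein alpha subunits, Gnai1, was over 1.5 times lower, against 5.29%.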
